A study of Mus musculus with 6 samples.

Results

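Cholesterol is made in the liver from acetyl-CoA by a chain of enzymes, is taken up from lipoproteins, and leaves the hepatocyte as bile sterol, as nascent HDL or as cholesteryl ester. The genes described here are 34 members of these routes, which were taken by symbol: 18 genes of cholesterol synthesis, 9 genes of SREBP2 control and sterol uptake, and 7 genes of sterol export and esterification. They are 34 of the 24239 genes with a symbol on the array and are covered by 47 of its 55681 probes. All 34 were detected, which means that in control mice, in TCE mice or in both the signal of all 3 arrays was well above background, as were 43 of their probes. The 4 probes that were not detected belong to Hmgcs1, Fdft1, Srebf2 and Mylip, each of which has another probe that was.

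Liver RNA came from male B6C3F1 mice, a hybrid strain used in carcinogenicity studies, that were 7 weeks old. The 3 control mice received corn oil by mouth for 5 days, and the 3 TCE mice received the solvent trichloroethylene (TCE) in corn oil at 1000 mg/kg b.w. per day over the same 5 days. Each mouse was hybridized to a 1-colour array of its own, so the spread given is that between animals at a single dose and time. Values are quantile-normalized log2 signals of the detected probe with the highest mean for each gene. A difference is the TCE mean minus the control mean, so that -1 on the log2 scale is a fall to 50% of the control level and a 2-fold change.

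Between 23537 and 24965 probes were well above background per array, and 0 spots were saturated. Control mouse 1 was alone on its slide and in its scan, while the other 5 arrays shared a slide and a scan. All 8 hepatocyte markers examined were detected, 5 lower and 3 higher on average in TCE mice. Of these and of the markers of 4 other liver cell types 0 were past the limma threshold defined with the results. At an unadjusted p of 0.05 or less, 1 hepatocyte marker was lower and 1 higher, and 1 stellate cell marker was lower. The shares over all detected genes were 7.11% lower and 12.0% higher. The stellate cell marker was Lrat, the retinol-esterifying enzyme of these cells, with a log2 difference of -1.35. Its groups did not overlap, and the adjusted p was 0.0676 (limma). The 8 markers of Kupffer cells and macrophages were detected as well, 7 lower and 1 higher on average in TCE mice. The log2 of their summed signal was 14.6 to 14.8 in control mice and 14.5 to 14.8 in TCE mice. All 6 markers of sinusoidal endothelial cells were lower on average in TCE mice, as were 6226 of all 13284 detected genes. The log2 of their summed signal was 14.6 in every control mouse and 13.7 to 14.7 in TCE mice. The groups did not overlap and TCE mice were lower for 2 markers each of hepatocytes, sinusoidal endothelial cells and stellate cells, beside 10.8% of all detected genes. The endothelial ones were Stab1 (-0.40) and Stab2 (-0.54). For 1 hepatocyte marker TCE mice were higher without overlap, beside 17.1% of all detected genes. Of stellate cell markers 5 of 6 were detected, 3 lower and 2 higher on average, and of bile duct markers 3 of 5, all lower. On no array did the defining bile duct marker Epcam stand well above background. The part of these cells in the sterol values was not tested. In whole liver, fewer cells of a type and less RNA per cell cannot be told apart.

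When cholesterol in the membrane of the endoplasmic reticulum runs low, the escort protein SCAP carries SREBP2 to the Golgi, where it is cut and freed to switch on the synthesis genes and the uptake of lipoproteins. When cholesterol is plentiful, the INSIG proteins hold SCAP back and these genes are less active. Excess sterol acts in the opposite sense through oxysterols and the liver X receptors (LXRs), which raise the exporters ABCA1, ABCG1 and the ABCG5/ABCG8 dimer, the last of which moves sterol into bile.

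Most genes of cholesterol synthesis had a lower mean in the TCE mice, and Mvd, Sqle and Sc4mol fell to between 33.3% and 38.5% of the control level. Of the 18 synthesis genes, 16 were lower on average in TCE mice and 2 were higher, with a median log2 difference of -0.45, against 0.02 over all 13284 detected genes. The 9 genes of SREBP2 control and uptake were divided, 4 lower and 5 higher, with a median of 0.12. Of the 7 export and esterification genes 6 were higher and 1 was lower, with a median of 0.17. No test was made of these medians.

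The limma fit (two-sided) covered all detected probes, with p values adjusted by Benjamini-Hochberg over all of them. The threshold for a gene was an adjusted p of 0.05 or less together with a 2-fold change in either direction. Of the 34 members, 3 were past the threshold as lower and 0 as higher, where the shares over all detected genes were 0.429% lower and 1.30% higher. All 3 belong to synthesis. Without the 2-fold limit the count was again 3 lower and 0 higher, beside 0.587% and 1.80% of all detected genes. In the methods' t-test, with a 2-fold change and a limit of 0.05 on p without adjustment, 4 members were lower and 0 were higher, beside 0.949% and 2.15% of all detected genes, and the fourth was Mvk. At an unadjusted p of 0.05 or less, 10 members were lower and 1 was higher, where the shares over all detected genes were 7.11% and 12.0%. The groups did not overlap and TCE mice were lower for 11 members, beside 10.8% of all detected genes. They did not overlap and TCE mice were higher for 2 members, beside 17.1% of all detected genes.

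**Figure D1:**
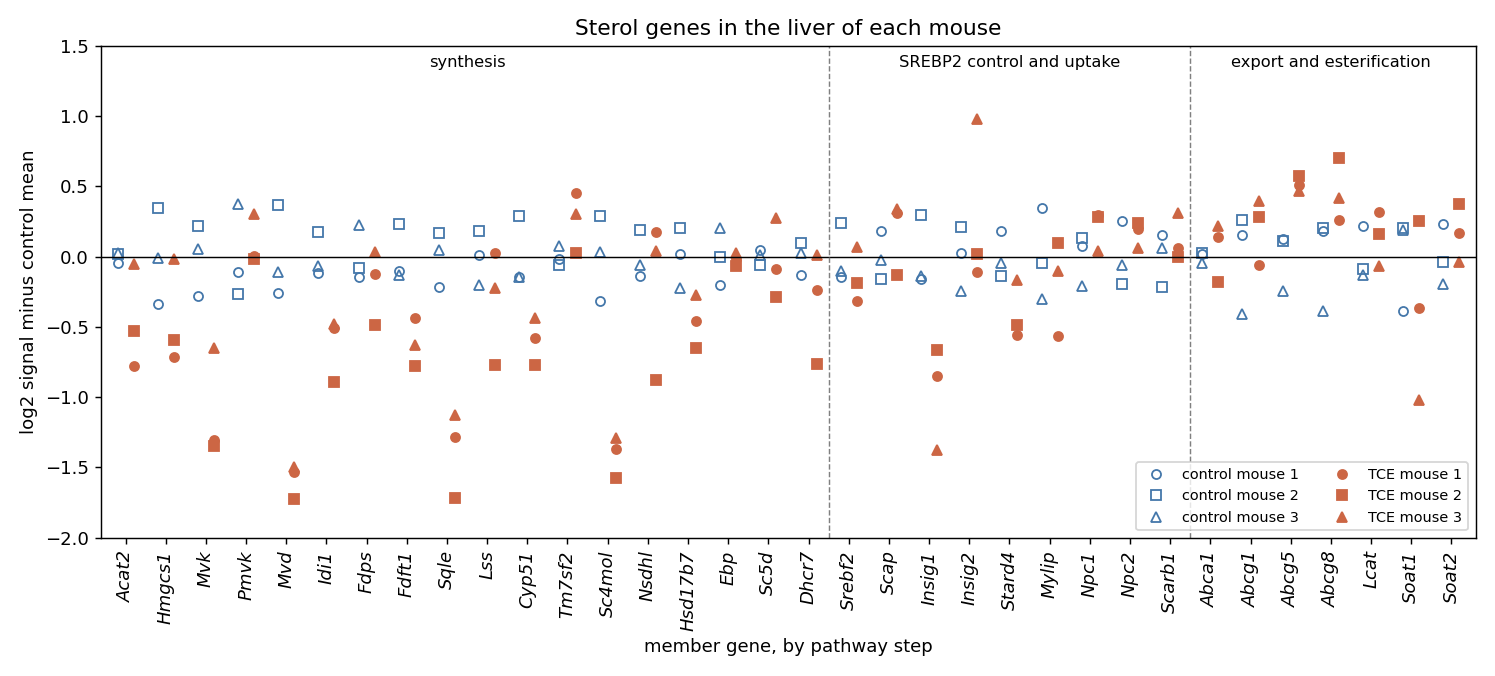
Log2 signal of each mouse minus the control mean (vertical axis) for the 34 member genes in the order of the pathway (horizontal axis), with control mice as open and TCE mice as filled symbols. In the synthesis block Mvd, Sqle and Sc4mol have all 3 TCE mice well below all 3 control mice, while in the export block Abcg5 and Abcg8 have all 3 TCE mice above the control mice.

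The early steps make mevalonate and turn it into isoprene units. Mvd, which decarboxylates mevalonate diphosphate to isopentenyl diphosphate, had log2 signals of 10.69, 11.31 and 10.84 in the control mice and 9.41, 9.22 and 9.45 in the TCE mice. Every TCE mouse lay more than 1 log2 unit below every control mouse. The difference was -1.59 ± 0.19 (SE, n = 3 mice per group), a 3.00-fold fall, with an adjusted p of 0.0161 (limma). By the size of its fall Mvd had rank 56 among the 13284 detected genes. Its probe lies on chromosome 8 at 124957750 to 124957809 of mm9, the build of the array's annotation, on the minus strand.

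Mvk, the kinase that acts on mevalonate, had log2 signals of 12.86, 13.35 and 13.19 in control mice and 11.83, 11.79 and 12.48 in TCE mice. The groups did not overlap, and TCE mouse 3 was the closest to the control mice. The difference was -1.10 ± 0.23 (SE), but the adjusted p of 0.0811 (limma) missed the threshold. The other detected probe of Mvk gave -0.98 with an adjusted p of 0.0625.

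Idi1, which interconverts the isopentenyl diphosphate isomers, had 13.96, 14.25 and 14.01 in control mice and 13.57, 13.18 and 13.60 in TCE mice, again without overlap, a difference of -0.63 ± 0.16 (SE) with an adjusted p of 0.125 (limma). The first enzymes of the route differed by less. Acat2, which joins acetyl-CoA units in the cytosol, gave -0.45 with an adjusted p of 0.298, and Hmgcs1, the cytosolic HMG-CoA synthase, gave -0.44 with an adjusted p of 0.418. Their log2 signals in TCE mouse 3, 14.16 and 14.77, were close to the control means of 14.21 and 14.79, whereas TCE mice 1 and 2 were lower for both genes. Pmvk, the kinase that follows Mvk, gave 0.10 with a 95% interval of -0.38 to 0.58, and Fdps, which makes farnesyl diphosphate, gave -0.19 with an interval of -0.63 to 0.24.

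Fdft1 encodes squalene synthase, the step committed to sterols. Its log2 signals were 12.40, 12.73 and 12.37 in control mice and 12.07, 11.72 and 11.87 in TCE mice. All TCE mice were below all control mice, and the difference was -0.62 ± 0.16 (SE) with an adjusted p of 0.120 (limma).

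Sqle, squalene epoxidase, a rate-controlling enzyme of the later pathway, had log2 signals of 13.44, 13.82 and 13.70 in control mice and 12.37, 11.94 and 12.53 in TCE mice. The lowest control mouse stood clear of the highest TCE mouse. The difference was -1.38 ± 0.19 (SE), a 2.60-fold fall, with an adjusted p of 0.0282 (limma). The probe is on chromosome 15 at 59162688 to 59162747 (mm9, plus strand).

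Sc4mol, now named Msmo1, encodes the oxidase that begins removal of the methyl groups at carbon 4 of the sterol ring. It had log2 signals of 14.74, 15.35 and 15.09 in control mice and 13.70, 13.49 and 13.77 in TCE mice. The 3 TCE mice lay close together and below the lowest control mouse. The difference was -1.41 ± 0.18 (SE), a 2.66-fold fall, with an adjusted p of 0.0228 (limma). Its probe is on chromosome 8 at 67196982 to 67197041 (mm9, minus strand).

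The other enzymes between squalene and cholesterol moved less. Cyp51, lanosterol demethylase, had 9.74, 10.17 and 9.74 in control mice and 9.30, 9.11 and 9.45 in TCE mice, without overlap, a difference of -0.60 ± 0.17 (SE) and an adjusted p of 0.148. Hsd17b7, a sterol ketone reductase, gave -0.46 with an adjusted p of 0.220, also without overlap, and its other detected probes were lower too. Lss, which closes the ring to lanosterol, and Dhcr7, one of the last enzymes before cholesterol, gave -0.32 and -0.33, with intervals of -0.87 to 0.23 and of -0.84 to 0.18. Nsdhl, the next enzyme in demethylation, gave -0.22, with TCE mouse 2 at 9.84 and the other 2 TCE mice at 10.76 and 10.89, within the control range of 10.59 to 10.91. Ebp, the sterol isomerase, and Sc5d, the sterol desaturase, differed by -0.02 and -0.03, with intervals of -0.35 to 0.31 and of -0.43 to 0.37. Tm7sf2, a sterol reductase related to the lamin B receptor, was higher at 0.26 with an interval of -0.08 to 0.60.

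The 8 genes up to squalene had a median log2 difference of -0.53 and the 10 genes from squalene onwards one of -0.33. Within each block the genes with the largest falls stood beside genes with differences near 0, so the falls did not follow the order of the pathway. For all 8 members with more than 1 detected probe, 5 of them synthesis genes, the probes gave differences of the same sign.

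**Figure D2:**
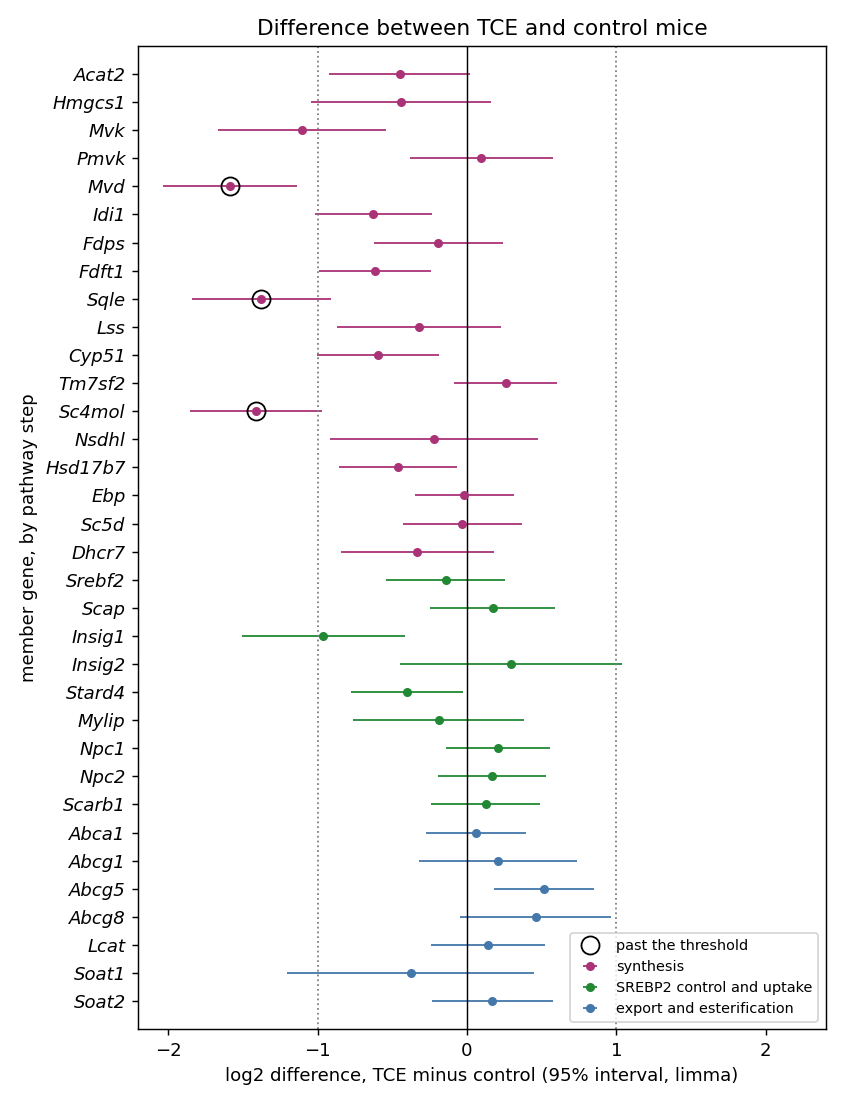
Log2 difference of TCE minus control with its 95% interval (horizontal axis) for the 34 members in pathway order (vertical axis), with the 2-fold limits as dotted lines and rings around the genes past the threshold. The ringed genes are Mvd, Sqle and Sc4mol, and Mvk and Insig1 are the nearest to them.

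The TCE mice differed among themselves in the synthesis genes. Measured as the median over the 18 synthesis genes of the log2 signal minus the control mean, TCE mouse 2 stood at -0.77, TCE mouse 1 at -0.45 and TCE mouse 3 at -0.14, while control mice 1, 2 and 3 stood at -0.13, 0.18 and 0.02. TCE mouse 3 was thus near control mouse 1 by this median. TCE mouse 2 was the lowest TCE mouse for 16 of the 18 genes, and TCE mouse 3 was the highest for 14 of them. TCE mouse 3 lay below all control mice for 10 of the 18 genes, Mvd, Sqle and Sc4mol among them, TCE mouse 1 for 12 and TCE mouse 2 for 15.

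**Figure D3:**
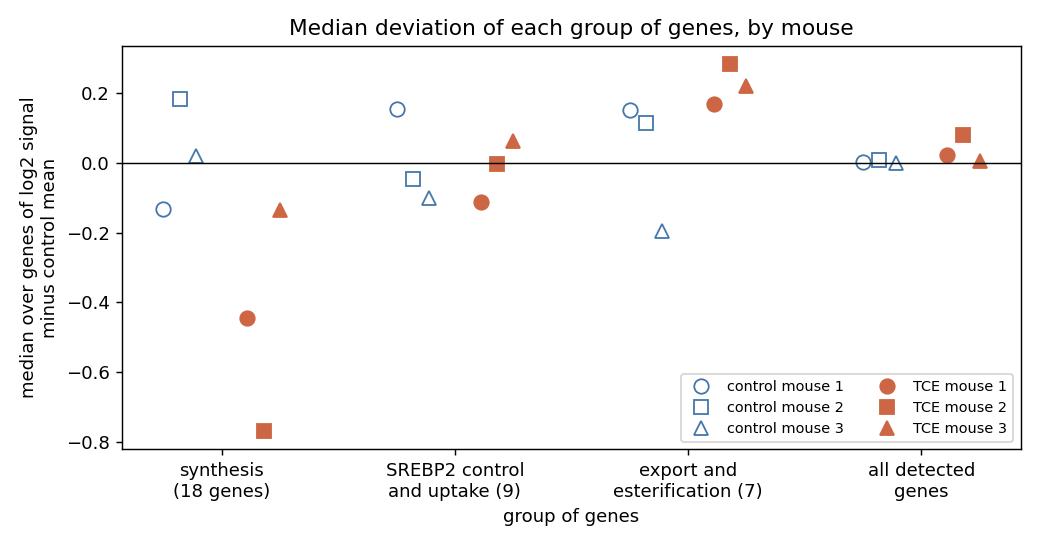
Median over the genes of each group (horizontal axis) of the log2 signal minus the control mean (vertical axis), 1 symbol per mouse, with all 13284 detected genes for comparison. The synthesis medians of the TCE mice spread from -0.77 to -0.14, while over all detected genes every mouse lies within 0.1 of 0.

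The 3 calls rest on few animals. When 1 mouse was left out and the rest refitted, Mvd stayed past the threshold without control mouse 1 or 2. Sc4mol did so without control mouse 1, and Sqle without TCE mouse 2 or 3. Without control mouse 3 or TCE mouse 1, 0 members passed. In these fits 9 and 8 were lower at an unadjusted p of 0.05 or less, and 1 was higher in each. Over all tested probes, 28 and 26 were past the threshold as lower in these fits, against 87 in the main fit. As higher there were 117 and 109, against 234. The other fits without a mouse gave between 19 (without control mouse 2) and 74 (without TCE mouse 3) as lower. Whether the members lost more calls than all probes was not tested. The fits without 1 mouse gave adjusted p values of 0.0375 to 0.0698 for Mvd, 0.0485 to 0.123 for Sqle and 0.0323 to 0.0947 for Sc4mol, and no difference of these genes was smaller than the -1.21 of Sqle. With the slide as a block, which leaves control mouse 1 out of the comparison, the differences were -1.71, -1.48 and -1.57, and the adjusted p of Sqle rose to 0.0622.

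The promoters of these genes, taken from RefSeq on GRCm38.p6 as 250 bases before and 50 bases after the start of transcription, were searched on both strands for letters linked to SREBP2. On many promoters SREBP2 acts together with the CCAAT-binding factor NF-Y. A promoter was at hand for 26 of the 34 members, Sc4mol under its new name. The 8 without one include Sqle and Fdft1. The letters CCAAT stood in the promoters of 14 of 15 synthesis genes, 5 of 6 control and uptake genes and 4 of 5 export and esterification genes, against 11096 of 27025 genes (41.1%) with a promoter. The sterol element written TCACNCCAC was found for 1 of the 26 members, Hmgcs1, where it starts 137 bases before the start site, against 1.44% of all genes, and the LXR element, AGGTCA repeated after any 4 bases, for 0 of the 26, against 0.0148% of all genes. These are matches of exact letters, not measured binding, and sites spelled otherwise or outside the bases searched were not sought. The LXR letters stood in 4 of all 27025 genes with a promoter. Their absence from the 26 members therefore cannot show whether these genes lack LXR sites. The stretches before the start sites of Hmgcs1, Mvk, Mvd, Sc4mol and Insig1 are shown because they place the motifs side by side in genes with small and large falls. Capitals mark CCAAT or its reverse complement ATTGG, and in Hmgcs1 also the sterol element TCACCCCAC.
Hmgcs1, chr13:119690101-119690350, plus strand: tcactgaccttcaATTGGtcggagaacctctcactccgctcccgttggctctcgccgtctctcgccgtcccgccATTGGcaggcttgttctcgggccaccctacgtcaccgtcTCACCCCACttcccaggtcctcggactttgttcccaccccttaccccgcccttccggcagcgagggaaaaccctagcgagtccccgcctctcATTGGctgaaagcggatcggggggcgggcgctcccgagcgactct
Mvk, chr5:114444071-114444268, plus strand: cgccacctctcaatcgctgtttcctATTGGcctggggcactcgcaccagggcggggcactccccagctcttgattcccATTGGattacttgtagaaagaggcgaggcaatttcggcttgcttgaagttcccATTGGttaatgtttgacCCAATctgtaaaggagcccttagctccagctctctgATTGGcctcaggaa
Mvd, chr8:122443423-122443507, minus strand: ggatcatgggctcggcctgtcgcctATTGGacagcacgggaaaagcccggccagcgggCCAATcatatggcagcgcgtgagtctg
Sc4mol, chr8:64733604-64733763, minus strand: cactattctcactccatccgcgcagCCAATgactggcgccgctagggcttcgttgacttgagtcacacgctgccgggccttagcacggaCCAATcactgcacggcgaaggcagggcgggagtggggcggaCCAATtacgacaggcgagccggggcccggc
Insig1, chr5:28071171-28071225, plus strand: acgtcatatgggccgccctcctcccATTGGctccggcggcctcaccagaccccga
Mvk, with 5 CCAAT matches before its start, and Hmgcs1 and Sc4mol, with 3 each, had log2 differences of -1.10, -0.44 and -1.41. Mvd, which fell most of the members, has 2, so the number of matches did not order these genes by their fall.

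Among the genes that control SREBP2, Insig1 was the one with the largest difference and the mRNA of SREBP2 itself differed little. Srebf2, which encodes SREBP2, had log2 signals of 7.25, 7.64 and 7.30 in control mice and 7.08, 7.21 and 7.47 in TCE mice. The groups overlapped, and the difference was -0.14 ± 0.16 (SE) with a 95% interval of -0.54 to 0.25. Scap, the escort, gave 0.17 with an interval of -0.24 to 0.59.

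Insig1 holds SCAP in the endoplasmic reticulum and is itself a gene that SREBP2 switches on. Its log2 signals were 11.60, 12.05 and 11.62 in control mice and 10.90, 11.09 and 10.38 in TCE mice. All TCE mice were lower than all control mice, and TCE mouse 3, the highest of the TCE mice in most synthesis genes, was the lowest here. The difference was -0.96 ± 0.23 (SE), 1.95-fold lower, and the adjusted p of 0.102 (limma) missed the threshold.

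Insig2, the paralog with the same task, had log2 signals of 13.43, 13.62 and 13.16 in control mice and 13.29, 13.43 and 14.39 in TCE mice. TCE mice 1 and 2 were within the control range and TCE mouse 3 was above it. The difference was 0.30 ± 0.31 (SE) with an adjusted p of 0.661 (limma), and without TCE mouse 3 it was -0.05. The other detected probe had 11.75 to 11.97 in control mice and 12.14, 11.98 and 12.82 in TCE mice. By that probe the groups were narrowly apart, with TCE mouse 3 again the highest, and the difference was 0.48 ± 0.23 (SE) with an adjusted p of 0.342 (limma).

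The log2 signal of Insig2 minus that of Insig1, a quantity read only between mice and not as a ratio of transcripts, was 1.84, 1.57 and 1.54 in control mice and 2.39, 2.33 and 4.01 in TCE mice. It was higher in all 3 TCE mice than in all control mice. The exact permutation test (two-sided) gave p = 0.1, the smallest that 3 against 3 mice allow.

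**Figure D4:**
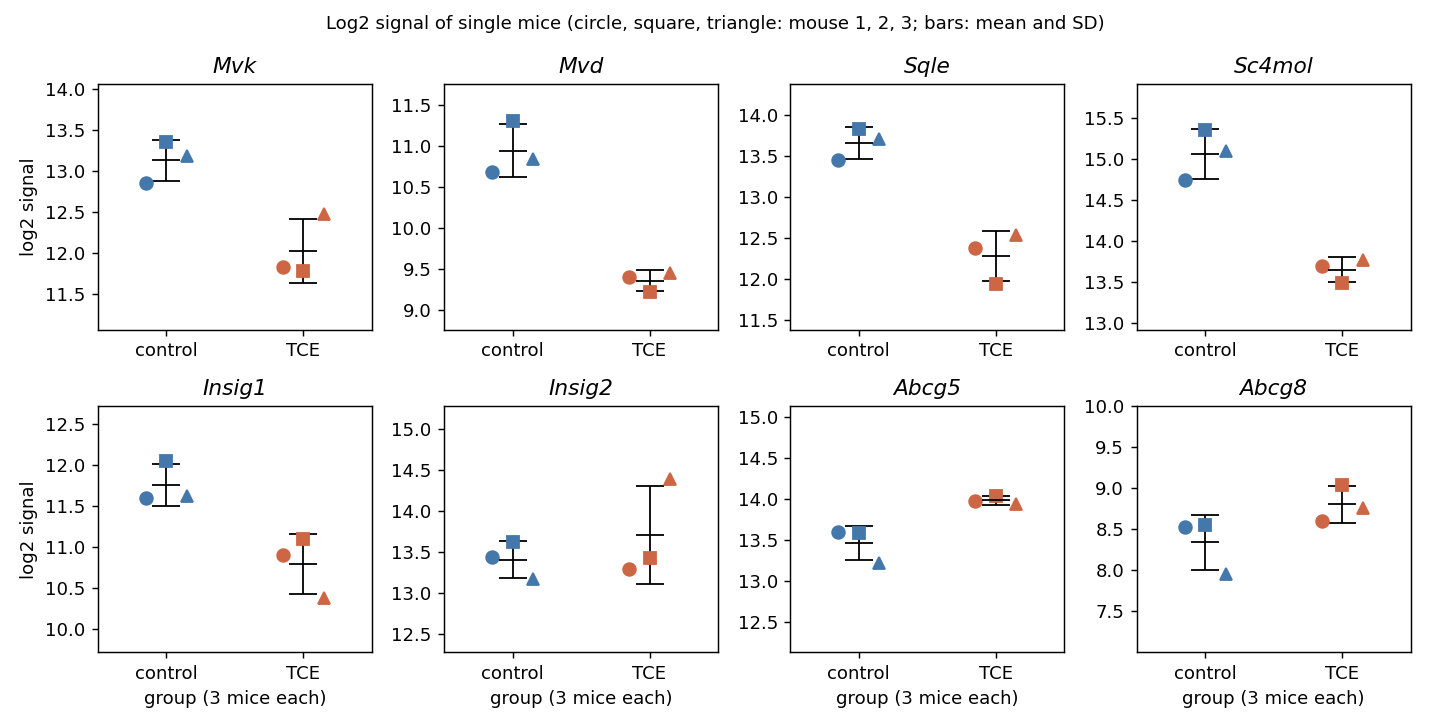
Log2 signal (vertical axes, each spanning 3 log2 units) of 8 members in the 3 control and 3 TCE mice, with the mean and SD of each group. Mvk, Mvd, Sqle, Sc4mol and Insig1 have TCE mice below the control mice, Insig2 has 1 high TCE mouse at 14.39, and Abcg5 and Abcg8 have TCE mice above the control mice.

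The members of uptake and transport inside the cell differed by less than Insig1. Other uptake genes, Vldlr among them, are given with the further lists. Stard4, a cytosolic sterol carrier and a further SREBP2 target, had control signals of 11.83 to 12.14 and TCE signals of 11.41 to 11.80. The groups were narrowly apart, with a difference of -0.40 ± 0.16 (SE) and an adjusted p of 0.253 (limma). Its second detected probe gave -0.19. Mylip, a ubiquitin ligase that removes lipoprotein receptors and a known LXR target, gave -0.19 with an interval of -0.76 to 0.38. The lysosomal exit proteins Npc1 and Npc2 gave 0.21 and 0.17, and Scarb1, the HDL receptor for selective uptake, gave 0.12, each with an interval that spans 0. Among all 9 genes of SREBP2 control and uptake, 0 were past the threshold in limma. At an unadjusted p of 0.05 or less 2 were lower, Insig1 and Stard4, beside 7.11% of all detected genes.

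None of the exporters passed the threshold. For Abcg5 and Abcg8, which secrete sterol into bile, the groups did not overlap and TCE mice were higher, as for 17.1% of all detected genes, while for Abca1 and Abcg1, which load HDL, the groups overlapped. The difference between these pairs was not tested. Abcg5 had log2 signals of 13.59, 13.58 and 13.22 in control mice and 13.97, 14.04 and 13.94 in TCE mice. The TCE mice lay close together and above the highest control mouse. The difference was 0.52 ± 0.14 (SE), 1.43-fold higher, with an adjusted p of 0.135 (limma), which missed the threshold.

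Abcg8, the partner of Abcg5 in the transporter, had 8.53, 8.55 and 7.95 in control mice and 8.60, 9.05 and 8.76 in TCE mice. TCE mouse 1 stood just above the highest control mouse, and control mouse 3 was the low one of its group for both genes. The difference was 0.46 ± 0.21 (SE) with a 95% interval of -0.04 to 0.97 and an adjusted p of 0.317 (limma), and it was 0.27 without control mouse 3. The start sites of these 2 genes lie head to head on chromosome 17. The 109 bases between them are shown for that reason (plus strand of GRCm38.p6). No CCAAT match lies within them. The CCAAT match directly beside them is at the start site of Abcg5 and starts 114 bases before that of Abcg8.
Abcg5 and Abcg8, chr17:84683012-84683120, plus strand: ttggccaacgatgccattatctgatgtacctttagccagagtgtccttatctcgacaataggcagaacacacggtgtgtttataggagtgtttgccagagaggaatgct

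Abca1, which hands cholesterol to lipid-poor apolipoprotein A-I and is the exporter best known as an LXR target, had 11.73, 11.75 and 11.67 in control mice and 11.86, 11.54 and 11.94 in TCE mice. TCE mouse 2 was below and the other 2 TCE mice were above the control range. The difference was 0.06 ± 0.14 (SE) with a 95% interval of -0.28 to 0.40, so a change of 2-fold lies outside the interval. Abcg1, which exports to mature HDL, gave 0.21 with an interval of -0.32 to 0.74.

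The esterifying enzymes showed no shared direction. Lcat, which esterifies cholesterol on HDL in plasma, gave 0.14, and Soat2, the enzyme of hepatocytes, gave 0.17. Soat1, its counterpart in most other cells, was dim, with log2 signals of 5.13 to 5.72 in control mice and 4.50 to 5.78 in TCE mice and no signal well above background in 1 TCE mouse, and gave -0.38 with an interval of -1.21 to 0.45. Across export and esterification 0 of 7 genes were past the threshold in limma, and 1, Abcg5, was higher at an unadjusted p of 0.05 or less, as were 12.0% of all detected genes.

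Genes that neighbor these routes were examined as further lists. Of 10 LXRs, their partners and other targets, all detected, 1 was past the threshold. Pltp, the phospholipid transfer protein of plasma and an LXR target, had log2 signals of 9.23, 8.95 and 9.50 in control mice and between 10.68 and 11.02 in TCE mice, far apart, a difference of 1.57 ± 0.18 (SE) with an adjusted p of 0.0149 (limma). On average 7 of the 10 were higher and 3 lower in TCE mice, with a median log2 difference of 0.24. The groups did not overlap and TCE mice were higher for 5 of the 10, Pltp, Lpcat3, Lpl, Ncor1 and Smpdl3a, beside 17.1% of all detected genes. The 3 lower ones were Rxra (-0.33), Abca7 (-0.24) and Nr1h3, all with overlapping groups. Lpcat3, a phospholipid remodeling enzyme, gave 0.70 with an adjusted p of 0.0686. Srebf1, an LXR target that encodes SREBP1, gave 0.25 with an adjusted p of 0.432, and the LXR genes Nr1h3 and Nr1h2 gave -0.13 and 0.19.

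Of 12 genes of sterol transport, hydrolysis and other uptake, 1 was past the threshold. Vldlr, the receptor for very low density lipoprotein and a target of Mylip, had log2 signals of 5.99, 5.71 and 5.43 in control mice and 7.39, 8.16 and 8.10 in TCE mice. Every TCE mouse was far above the control mice, and the difference was 2.17 ± 0.25 (SE) with an adjusted p of 0.0155 (limma). The control signals of Vldlr were about as dim as those of Soat1, although they were well above background on all 6 arrays, as were the TCE signals. Nceh1, which hydrolyzes stored cholesteryl ester, had 11.08, 11.35 and 11.20 in control mice and 12.02, 12.38 and 12.15 in TCE mice, without overlap. It rose by 0.98 ± 0.14 (SE), with an adjusted p of 0.0302 and just under 2-fold.

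Of 6 oxysterol-forming and oxysterol-clearing enzymes 5 were detected, and all 5 were lower on average in TCE mice. Cyp7b1, the oxysterol hydroxylase of the acidic bile acid route, was past the threshold, with log2 signals of 15.79, 16.39 and 16.17 in control mice and 14.26, 14.94 and 14.86 in TCE mice. The groups were separate, and the difference was -1.43 ± 0.24 (SE) with an adjusted p of 0.0440 (limma). Cyp27a1, which makes an LXR-binding oxysterol, gave -0.38 with an adjusted p of 0.295, and Ch25h was not detected.

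**Figure D5:**
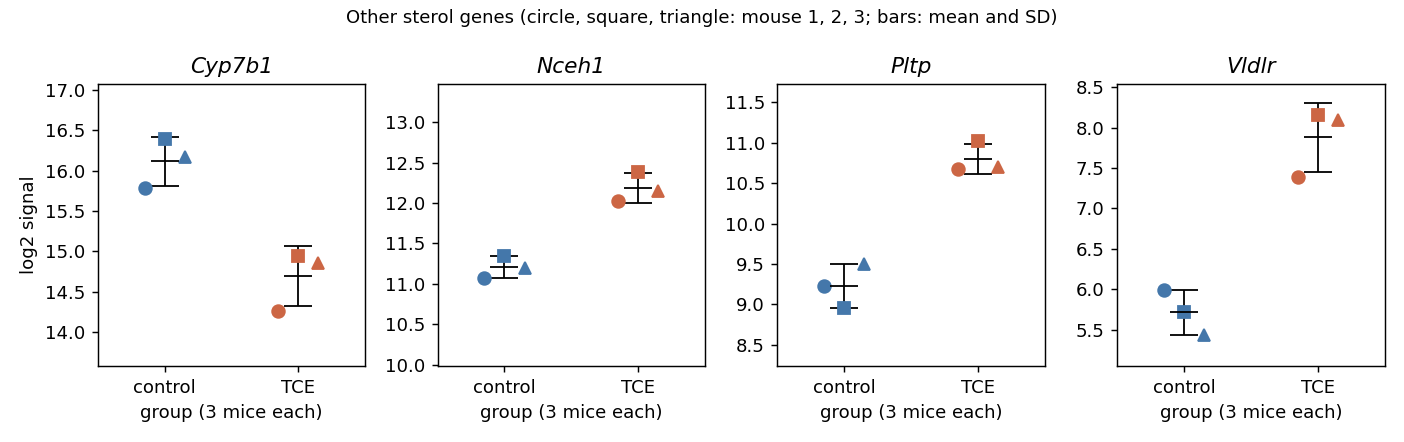
Log2 signal (vertical axes) of the genes of the neighboring lists with an adjusted p of 0.05 or less in the 3 control and 3 TCE mice, with the mean and SD of each group. Cyp7b1 is lower in all TCE mice and Nceh1, Pltp and Vldlr are higher in all TCE mice.

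The 12 genes of sterol sensing and SREBP processing include the proteases that cut SREBP2 and the subunits of NF-Y. Of these 12, 0 were past the threshold in limma, and the median log2 difference was -0.05. At an unadjusted p of 0.05 or less 1 was lower and 1 higher, beside 7.11% and 12.0% of all detected genes. Of 12 genes of the isoprenoid side branches and of acetyl-CoA supply 11 were detected, with 0 past the threshold in limma, 0 at an unadjusted p of 0.05 or less and a median of 0.13.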

How the data were processed

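Total liver RNA of 3 control and 3 TCE mice was labeled with Cy3 and hybridized to Agilent arrays, 1 mouse per array. The deposited intensity of each spot comes from Feature Extraction 10.7.1.1, with which the authors subtracted the background. The authors also deposited quantile-normalized log2 means of each group, which hold no single mice; the group means computed here lay within 0.00117 of them for the 47 member probes. Its 6 columns of detection flags were not used.

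The deposited intensity was put on the log2 scale without a pseudocount, outlier spots (123 to 189 per array) were set to missing, repeated spots were averaged, and quantile normalization was applied. Detection followed the study's methods, and the fit of limma 3.58.1 (R 4.3.3) covered 22731 detected probes, group only, two-sided, with Benjamini-Hochberg adjustment. The procedure was tested on simulated data. Of several detected probes of a gene, the brightest on average stood for it. All 34 members are named; single mice are given for members past the threshold, for separate groups with a change of 1.5-fold or more, and for Srebf2, Insig1, Insig2 and Abca1, and from other lists genes with an adjusted p of 0.05 or less are given. Single mice of Abcg5 and Abcg8 were added after their values were seen. So were the values of Lrat, Stab1, Stab2, Lpcat3, Srebf1, Rxra, Abca7, the LXR genes and Cyp27a1. The members and lists were chosen with earlier results of these data known. Alternatives changed the normalization, background correction, filter, probe choice, variance model, test, slide and replicate blocks, or left out a mouse. One further marker list is not reported here. The number of arrays limits the precision.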

Additional observations from a re-analysis of the deposited data

How the results depend on the processing

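The count of 3 members past the threshold fell to 0 when all 55681 probes were tested, with the replicate number as a block and in the methods' t-test after Benjamini-Hochberg adjustment, and ranged from 0 to 2 when 1 mouse was left out; the count at any fold did the same. In these 3 settings 10, 8 and 9 members were lower at an unadjusted p of 0.05 or less and 1 was higher. The share of all genes at an unadjusted p was computed for the main fit only. Over all tested probes, 18, 7 and 4 were past the threshold as lower in these settings, against 87 in the main fit. As higher there were 78, 56 and 31, against 234. In the methods' t-test without adjustment 4 members were past 2-fold and 10 were at p of 0.05 or less at any fold. Mvk joined the others, 4 in all, with normexp, array weights, a trended and robust variance, or the mean of a gene's probes, and 2 remained with the slide as a block. The cause of these changes in count was not tested. The deviations of same-numbered mice had correlations of 0.0897, 0.00658 and -0.0916, and those of the other pairs ranged from -0.114 to 0.108. With 3 mice per group these values cannot tell whether the replicate numbers pair the mice.

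The synthesis median ranged from -0.58 to -0.32 with 1 mouse left out and the export median from 0.07 to 0.28. The control and uptake median ranged from -0.0463, without TCE mouse 3, to 0.202. Single differences near 0 changed sign with 1 mouse left out: Pmvk (-0.0383 to 0.284), Nsdhl (-0.418 to 0.107), Ebp (-0.118 to 0.0858), Sc5d (-0.187 to 0.0944), Insig2 (-0.0463 to 0.501) and Abca1 (-0.0190 to 0.182). Ebp was 0.0142 with normexp, and Sc5d was 0.0115 with 75th percentile and 0.0516 with median normalization. With 3 mice per group Mvk, 2.15-fold lower, missed the threshold, and the smaller differences of the export genes, with standard errors of 0.14 to 0.34, are not resolved.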
